A study of Sus scrofa with 2 samples.

Results

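The TNF ligand and receptor superfamilies were followed through the chromatin folding of pig spleen. The members were all protein-coding genes of the RefSeq annotation of the pig assembly Sscrofa11.1 whose symbol starts with TNFSF (ligands) or TNFRSF (receptors) followed by a digit, except TNFRSF13C. This rule gave 26 genes, 11 ligands and 15 receptors, of 19550 protein-coding genes on the 20 placed chromosomes. They lay on 12 chromosomes, with 6 receptor genes on chromosome 6. The rule used names only and no measured value, but it was chosen with earlier results of these data known. The study mapped contacts between stretches of chromatin by in situ Hi-C in spleen tissue of Sus scrofa, with 2 biological replicates, r1 and r2, in a single group. The labels give no age, breed, sex or treatment. The 2 deposited tables list 1927 topologically associating domains (TADs, blocks of a chromosome whose inner contacts outnumber those across their edges) and 3410 loops (pairs of 25 kb bins, the anchors, with more contacts than the pixels around them). Each table covers the whole series, so no value has a spread over replicates and no test over samples was possible.

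TNF superfamily ligands are mostly trimeric proteins on the cell surface, some of them shed, and their receptors carry cysteine-rich repeats outside the cell. Ligand binding brings receptors together, which recruit TRAF adaptors towards NF-kB or, through death domains, the machinery of caspases and necroptosis. In the spleen these proteins are known for the survival of B cells and plasma cells, the costimulation of T cells and the upkeep of lymphoid tissue. A spleen is a mixture of cell types, which the tables do not separate.

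Of the 26 members, 5 (19.2%) had an annotated end in a loop anchor, against 17.3% of all protein-coding genes, so the share of members was near the background. They were the ligands TNFSF9 and TNFSF12 and the receptors TNFRSF1B, TNFRSF19 and TNFRSF21, that is 2 of 11 ligands and 3 of 15 receptors. The gene table gives no strand, so an end may be the start or the finish of transcription. A further 3 members, TNFSF4, TNFSF10 and TNFRSF8, had an anchor inside the gene and none at an end, which made 8 members touched by an anchor (30.8%, background 20.7%). With anchors extended by 10 kb the count rose to 9 members (34.6%, background 24.5%), the additions being TNFSF10, TNFSF13, TNFRSF11A and TNFRSF17. In the 1701 loops with the lowest FDR it was 2 members, TNFSF9 and TNFRSF21 (7.69%, background 9.37%). With 1 pixel per group of touching pixels it was 4 members (15.4%, background 14.7%).

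Whole genes lay inside a TAD for 9 members (34.6%), against 26% of all protein-coding genes, 6 of them ligands and 3 receptors. Those inside were TNFSF8, TNFSF9, TNFSF12, TNFSF13, TNFSF14, TNFSF15, TNFRSF6B, TNFRSF17 and TNFRSF21. The ligands shared TADs in pairs, TNFSF8 with TNFSF15, TNFSF9 with TNFSF14 and TNFSF12 with TNFSF13, so their calls are not independent. By gene midpoint the count was also 9 (background 31.1%), and by any overlap it was 10 (38.5%, background 35.4%) with TNFRSF25. Only 3 members had an end within 20 kb of a TAD edge (11.5%, background 18.7%), and all of these were receptors. Within 10 kb it was 1 member (3.85%, background 11.1%), and within 40 kb 5 members (19.2%, background 29.6%). Another measure was whether a gene lay whole between the anchors of a loop. This held for 9 members (34.6%, background 19.3%) and for 7 with loops of at most 1 Mb (26.9%, background 15.4%). With 1 pixel per touching group it was 9 again (34.6%, background 18.5%). In the loops with the lowest FDR it was 3 (11.5%, background 11%), near the background. These alternatives for enclosure were not planned. Here too calls were shared, as TNFSF8 and TNFSF15 had the same enclosing loop, and so did TNFSF12 and TNFSF13. The median member lay 47.5 kb from an anchor, against 94.9 kb for all protein-coding genes. The upper quartile went the other way, at 529 kb for members against 380 kb for all protein-coding genes. From a TAD edge the median member lay 116 kb, against 107 kb. Members spread widely on both measures, from 0 to 3285 kb for anchors and from 1.44 to 1095 kb for TAD edges. A total of 10 members, 2 ligands and 8 receptors, were neither whole in a TAD nor touched by an anchor nor enclosed by a loop. The other 16 made up 61.5% of members, and 46.8% of all protein-coding genes met at least 1 of these conditions. Gene number nearby differed little between members with and without an end in an anchor, with a median of 5 other protein-coding genes within 200 kb (range 2 to 30) for the first and 6 (range 2 to 33) for the others.

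**Figure D1:**
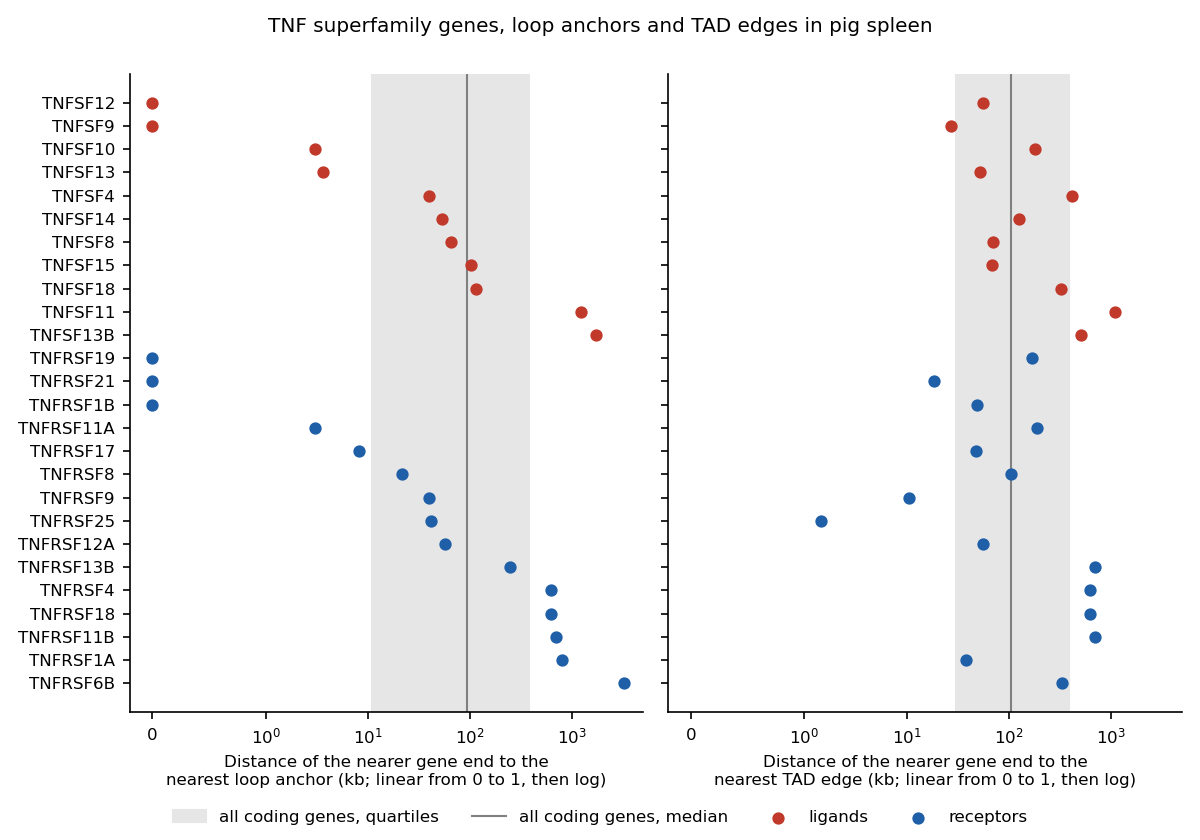
Distance in kb of the nearer annotated end of each of the 26 genes to the nearest loop anchor (left) and TAD edge (right), on an axis that is linear up to 1 kb and logarithmic beyond, with ligands in red, receptors in blue and the median and quartiles of all protein-coding genes in grey. The 5 genes at 0 kb from an anchor are 2 ligands and 3 receptors, while TNFRSF6B, TNFSF13B and TNFSF11 lie 1245 to 3285 kb from any anchor.

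The ligand genes TNFSF14, CD70 and TNFSF9 shared a TAD of 310 kb on chromosome 2, chr2:72300001-72610000, with VAV1, an exchange factor of antigen receptor signalling, and C3, the central complement component. TNFSF9, the ligand of the T cell costimulator CD137, was the only member with 2 loops at an end. Both started from the anchor chr2:72575001-72600000, which also held an end of the tubulin gene TUBB4A. The first led 200 kb away to chr2:72375001-72400000, with ends of VAV1 and the adaptor gene SH2D3A, and had 142 observed contacts (exact Poisson 95% interval 120 to 167) against 79.5 expected. The second led 175 kb away to the neighbouring bin chr2:72400001-72425000, with ends of SH2D3A, TRIP10 and GPR108, and had 140 contacts (118 to 165) against 73.2 expected. These intervals here and below cover counting error only. The 2 pixels touch, and counted as 1 where a single pixel per touching group was kept. Their ratios of observed to expected contacts were 1.79 and 1.91, both below the median of 2.02 over the 3402 placed loops. Their largest FDR values, 0.00374 and 0.00658 in the authors' deposited table, were below the median of 0.0111. TNFSF14, known as LIGHT, which signals to lymphoid stroma and T cells, lay between the anchors of both loops, 91.1 kb from the anchor of TNFSF9 and 53.2 kb from the nearer partner anchor. CD70, the ligand of CD27, lay 46.9 kb from TNFSF9 in the same interval. Neither had an end in an anchor.

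TNFSF15 and TNFSF8, the ligands of TNFRSF25 and TNFRSF8, were the only protein-coding genes inside a TAD of 270 kb, chr1:255260001-255530000. They lay 86.7 kb apart with no protein-coding gene between them. Neither met an anchor, the nearest being 104 kb from TNFSF15 and 66.0 kb from TNFSF8. A loop of 325 kb enclosed both, from chr1:255200001-255225000, with an end of TEX48, to chr1:255525001-255550000, with an end of TNC, the matrix protein tenascin C. It had 90 contacts (72.4 to 111) against 50.9 expected, and its largest FDR, 0.0835, was close to the highest value listed, 0.0999.

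TNFSF12, known as TWEAK, and TNFSF13, known as APRIL, a survival factor of plasma cells, lay 0.318 kb apart in a TAD of 320 kb on chromosome 12, chr12:52590001-52910000. This TAD held 30 protein-coding genes, among them POLR2A and the macrophage gene CD68. An end of TNFSF12 lay in the anchor chr12:52825001-52850000, and TNFSF13 began 3.65 kb beyond it. With bins of 25 kb the loop cannot be given to either gene. It led 100 kb away to chr12:52725001-52750000, with ends of C12H17orf74, TMEM102, FGF11 and CHRNB1, the latter a subunit of the muscle acetylcholine receptor. The loop had 160 contacts (136 to 187), the most of the loops at members, against 112 expected. Its ratio of 1.43 was the lowest of these loops, and only 2.92% of the 719 autosomal loops of 100 kb had a lower one. A loop of 1550 kb with 21 contacts (13.0 to 32.1) also enclosed both genes.

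TNFSF18 and TNFSF4, whose products engage GITR and OX40 on T cells, lay 74.5 kb apart on chromosome 9 in a gap of 1380 kb between TADs. The gene before them in the family, FASLG, the death ligand of cytotoxic cells, was inside a TAD, and 372 kb separated it from TNFSF18. A loop of 450 kb began at chr9:115125001-115150000, 49.9 kb from the nearer end of FASLG, and ended at chr9:115575001-115600000 inside the annotated span of TNFSF4. It had 80 contacts (63.4 to 99.6) against 40.1 expected, and the interval of the ratio ran from 1.58 to 2.48. Only 5.71% of the 35 autosomal loops of 450 kb had a lower ratio. TNFSF18 lay whole between the anchors of this loop, 114 kb from the right one. The annotated TNFSF4 gene is 322 kb long, the longest of the 26, so the anchor is inside the gene only as far as that gene model holds. The anchor lay 39.8 kb from the nearer end of the model.

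TNFSF10, known as TRAIL, which triggers death receptors, had an anchor inside the gene, chr13:111025001-111050000, that began 3.05 kb from its end. Its loop of 100 kb led to chr13:111125001-111150000, with an end of the lipid hydrolase gene NCEH1, and had 108 contacts (88.6 to 130) against 70.4 expected, a ratio of 1.53. Only 11.8% of the 719 autosomal loops of 100 kb had a lower ratio. TNFSF10 lay in a gap of 4400 kb between TADs. TNFSF11, known as RANKL, and TNFSF13B, known as BAFF, the main survival factor of B cells, were far from all listed features on chromosome 11. They lay 1245 and 1742 kb from an anchor and 1095 and 517 kb from a TAD edge, and both sat in gaps between TADs, of 2720 and 4980 kb.

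**Figure D2:**
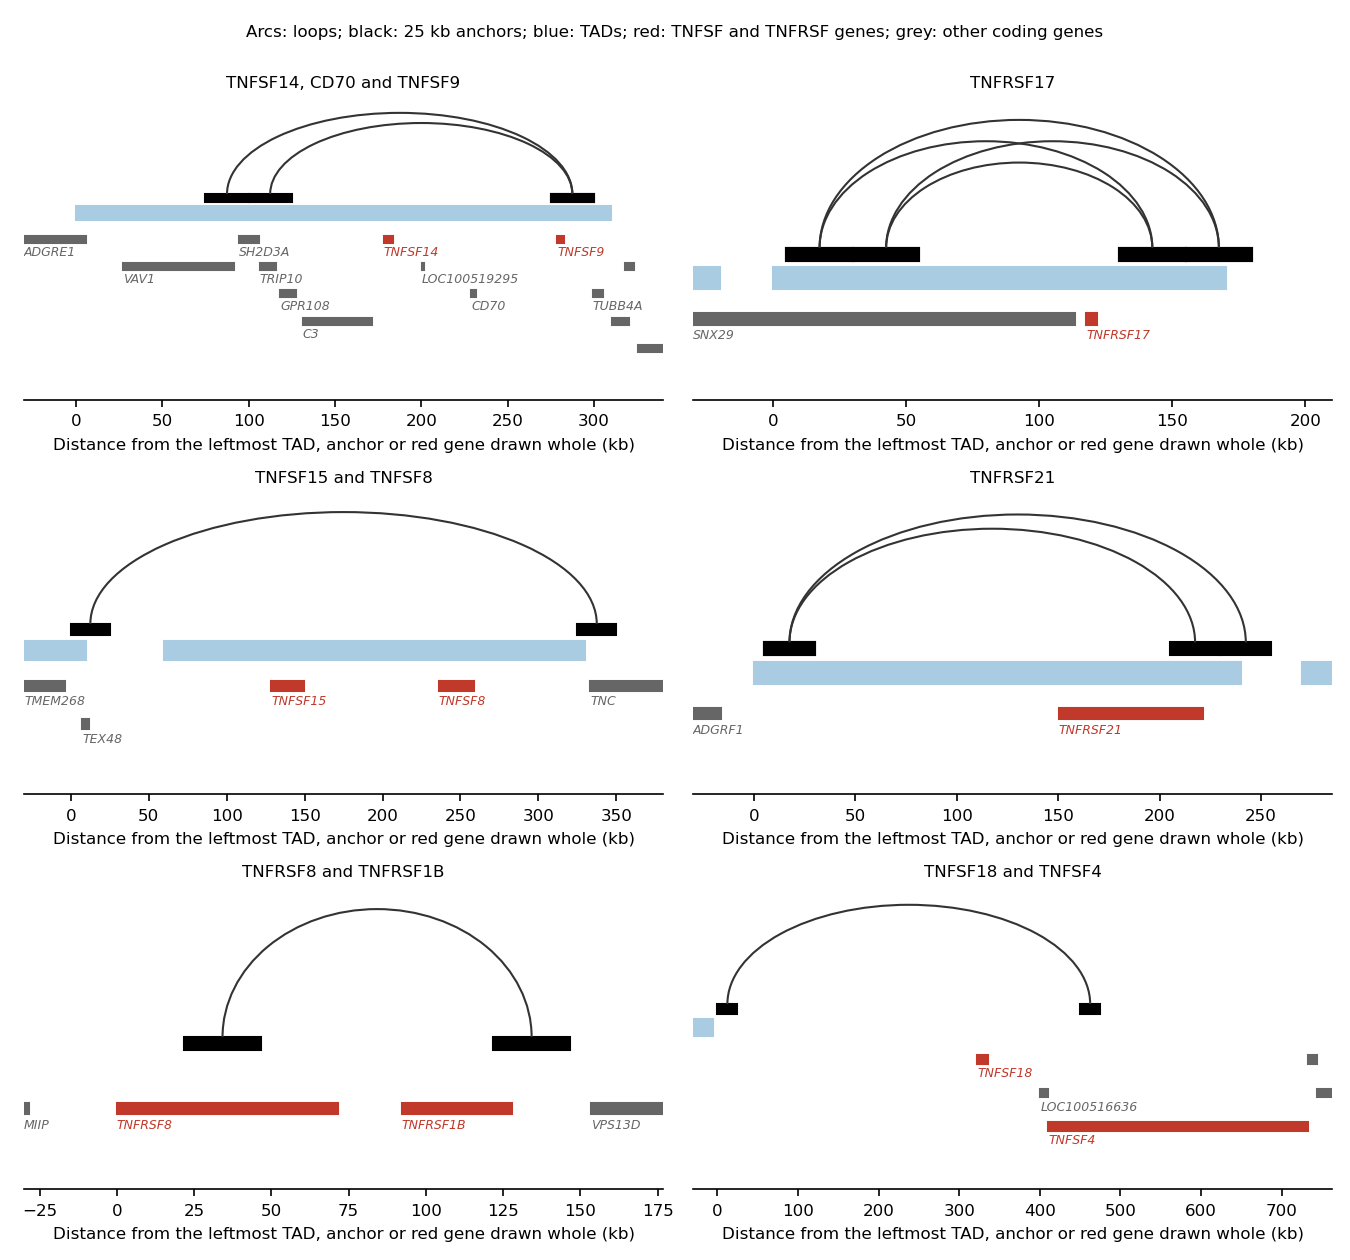
Maps of 6 loci, with distance in kb from the leftmost TAD, anchor or red gene, showing loops as arcs between black 25 kb anchors, TADs as blue bars, TNFSF and TNFRSF genes in red and other protein-coding genes in grey. The loops of TNFSF9 pass over TNFSF14 and CD70, the loop of 325 kb passes over TNFSF15 and TNFSF8, and the loop of 100 kb on chromosome 6 joins TNFRSF8 to TNFRSF1B.

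Among the receptors, TNFRSF8, known as CD30, and TNFRSF1B, known as TNFR2, both receptors of activated lymphocytes that recruit TRAF proteins, lay 20.5 kb apart on chromosome 6 in a gap of 840 kb between TADs. A loop of 100 kb joined them, from chr6:72125001-72150000 inside TNFRSF8 to chr6:72225001-72250000 at an end of TNFRSF1B. No other protein-coding gene had an end in either anchor. There were 5 pairs of members at most 86.7 kb apart with no other superfamily gene between them. Of these, this was the only pair with a loop from gene to gene, and 2 other pairs shared a TAD. TNFSF12 with TNFSF13, and TNFRSF18 with TNFRSF4, each cover far less than 100 kb, the shortest listed span. No listed loop could therefore join either of these pairs, so its absence there carries no information. The loop of TNFRSF8 and TNFRSF1B had 151 contacts (128 to 177) against 86.9 expected, a ratio of 1.74 (1.47 to 2.04). This ratio was close to the median of 1.73 for the 719 autosomal loops of that span. The FDR values of the authors' deposited table differed by neighbourhood, at 0.000133 against the donut and 0.0965 against the lower-left pixels. The second value was close to the highest listed, and the loop was absent from the 1701 with the lowest FDR. A span of 100 kb is also the shortest that the table lists.

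TNFRSF21, known as DR6, a death-domain receptor of lymphocytes and neurons, was the only protein-coding gene inside the TAD chr7:41870001-42110000, which is 240 kb long. Its loop joined both edges of this TAD, from chr7:41875001-41900000 to chr7:42075001-42100000, where an end of the gene lay. It had 116 contacts (95.9 to 139) against 48.9 expected. Its ratio of 2.37 (1.96 to 2.85) was above that of 82.0% of the 256 autosomal loops of 200 kb, and its largest FDR, 2.86e-06, was the lowest of the loops at members. The left anchor held no gene end, and the nearest protein-coding gene there was the adhesion receptor gene ADGRF1, 21.2 kb away. A touching pixel 25 kb further right, with 120 contacts (99.5 to 143) against 52.4 expected, began 8.48 kb beyond the gene. With only the pixel of most contacts kept from each touching group, that one remained and TNFRSF21 had no loop.

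TNFRSF19, known as TROY, a receptor described mainly in neural and epithelial tissue, differed from the other receptors in the reach of its loop. From its anchor, chr11:2450001-2475000, the loop ran 2650 kb to chr11:5100001-5125000. No protein-coding gene ended there, only the lncRNA LOC110255798. The loop had 16 contacts (9.15 to 26.0) against 2.56 expected, the fewest of the loops at members, and a ratio of 6.26 (3.58 to 10.2). No other autosomal loop had exactly this span, and loops of similar span were not compared. Its largest FDR was 0.0289, and it was not among the 1701 loops with the lowest FDR.

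TNFRSF17, known as BCMA, the receptor that sustains plasma cells, was the only whole protein-coding gene in the TAD chr3:31020001-31190000, which at 170 kb was longer than just 10.2% of the TADs. It had no end in an anchor, but 4 loops enclosed it. They joined the bins chr3:31025001-31050000 and chr3:31050001-31075000, inside the neighbouring gene SNX29, to the bins chr3:31150001-31175000 and chr3:31175001-31200000, and the first of the right-hand bins began 8.14 kb from TNFRSF17. The 4 pixels touch one another. They had 113, 121, 138 and 146 contacts against 59.2, 54.5, 83.9 and 69.9 expected. At least the pixel with 113 contacts joined both edges of this TAD, as the loop of TNFRSF21 did for its TAD. Of the largest FDR values of the 4 pixels, the lowest was 0.00111. It belonged to the pixel with 146 contacts, whose ratio was 2.09 (1.76 to 2.45). TNFRSF13B, known as TACI, which shares the ligands of BCMA, lay outside all TADs, 246 kb from an anchor and 696 kb from a TAD edge.

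TNFRSF11A, known as RANK, ended 3.04 kb from the anchor chr1:159100001-159125000 and lay whole inside its loop. The other anchor, chr1:159300001-159325000, held ends of KIAA1468 and of PIGN, an enzyme of GPI anchor synthesis. This loop of 200 kb had 96 contacts (77.8 to 117) against 49.0 expected. The soluble decoy of the same ligand, TNFRSF11B or osteoprotegerin, was 700.2 kb from an anchor and 710.2 kb from a TAD edge. Of this ligand and its 2 receptors, TNFRSF11A alone lay near a loop.

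The remaining receptors met no anchor. TNFRSF25, known as DR3, straddled the left edge of the TAD chr6:67320001-67500000, with an end 1.44 kb from it, and TNFRSF9, the receptor CD137, lay in a gap of 60 kb between TADs, 10.6 kb from the nearer edge. With TNFRSF21 at 18.5 kb these were the 3 members near a TAD edge. TNFRSF1A, the main receptor of TNF, was 38.1 kb from a TAD edge and 794 kb from an anchor. Its neighbours in the family, LTBR and CD27, lay within the same gap between TADs and had no anchor either. TNFRSF18 and TNFRSF4, that is GITR and OX40, lay 4.53 kb apart among 33 other protein-coding genes within 200 kb, yet 631 and 623 kb from the nearest anchor and in a gap of 1420 kb between TADs. TNFRSF12A, the receptor of TWEAK, was 56.7 kb from an anchor and 56.3 kb from a TAD edge. The decoy receptor gene TNFRSF6B lay in a TAD of 1510 kb with 61 protein-coding genes, which was longer than 98.8% of the TADs, and 3285 kb from the nearest anchor, the farthest of all members.

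The 6 loops with a member end in an anchor had a median span of 188 kb, against 175 kb for all 3402 placed loops. Their median was 141 contacts against 108, and their median ratio 1.85 against 2.02. Both touching pixels of TNFSF9, with 142 and 140 contacts, are among the 6. Contacts also vary with span, with medians of 136 and 109 for autosomal loops of 100 and 200 kb. The difference in contacts was not corrected for span. Without TNFRSF19 the loops at member ends had 116 to 160 contacts and ratios of 1.43 to 2.37. The interval of observed contacts lay above the expected value in each loop drawn, but loops are listed for that difference, so it is no separate evidence. Partner anchors held a protein-coding gene end for 3 of the 6 loops, those of TNFSF9 and TNFSF12.

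**Figure D3:**
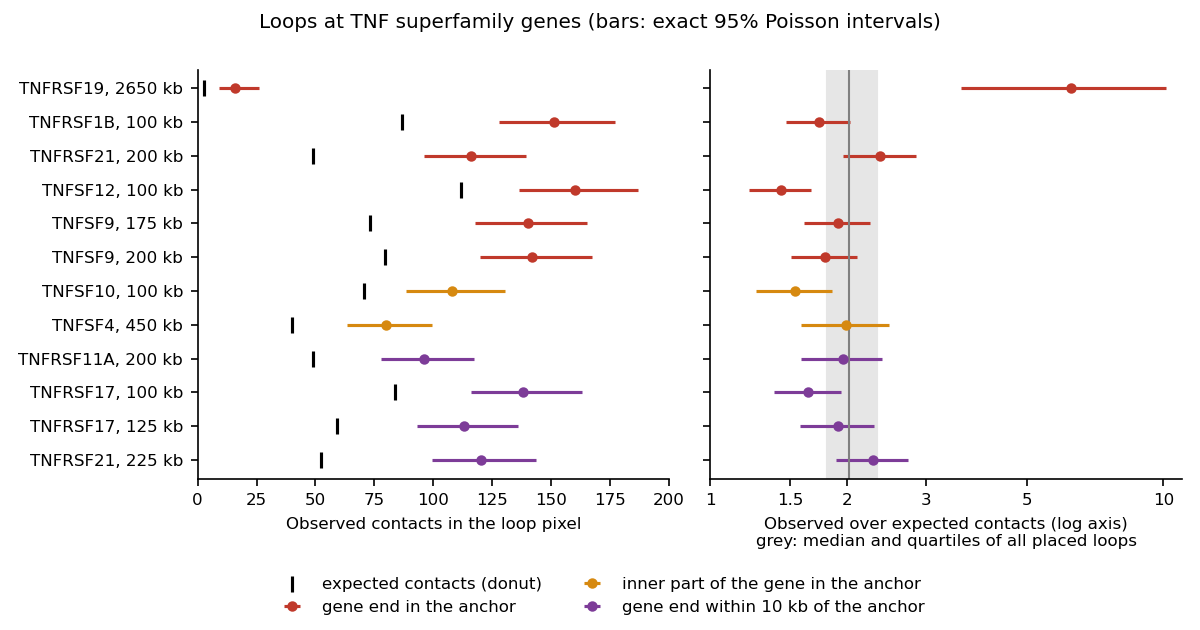
Observed contacts (left, with expected contacts as black ticks) and the ratio of observed to expected contacts on a log axis (right) for each loop at or near a member, with exact 95% Poisson intervals for counting error and the median and quartiles of all placed loops in grey. Most ratios lie near the grey band, TNFSF12 is lowest at 1.43, and TNFRSF19 stands apart at 6.26 with a wide interval from 16 contacts.

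Other genes of the pathway were taken from 4 lists, in which 58 of 62 entries matched a gene. The lists were chosen with earlier results of these data known, so their shares are descriptive and no independent evidence. Of these, 17 (29.3%) had an end in an anchor, against the 17.3% of all protein-coding genes, while 10 (17.2%, background 18.7%) lay within 20 kb of a TAD edge and 21 (36.2%, background 26%) inside a TAD. Of 7 superfamily ligands with other symbols 2 were at an anchor, namely TNF and LTA, which lay 1.36 kb apart and shared a loop of 100 kb on chromosome 7 with 158 contacts. Of 8 receptors with other symbols 2 were, with 1 loop each. FAS, the death receptor of lymphocytes, reached LIPA, the lysosomal acid lipase, and CH25H over 175 kb with 105 contacts. CD40, the costimulatory receptor of B cells, reached ELMO2 over 275 kb with 92 contacts.

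Adaptors and cell death genes were at an anchor in 6 of 19 cases (31.6%). TRADD, the adaptor of TNFRSF1A, had 2 loops of 125 and 200 kb with 139 and 112 contacts, and the ends of FAM96B and RRAD at its partners. RIPK1, the kinase that joins survival and necroptosis, had 1 loop of 125 kb with 94 contacts, and MLKL, which carries out necroptosis, had 1 of 225 kb with 107 contacts. TRAF6 and EDARADD, both signalling adaptors, had 1 loop each. In the NF-kB arm, 7 of 24 genes (29.2%) were at an anchor and 12 (50%, background 26%) inside a TAD. NFKBIA, the inhibitor that holds NF-kB in the cytoplasm, had a loop of 100 kb with 197 contacts to a bin with ends of PSMA6 and KIAA0391. MAP3K14, the kinase of the alternative NF-kB pathway, TAB1 and TNIP2 had 1 loop each, of 100 kb, with 158, 169 and 164 contacts. OTULIN, which removes linear ubiquitin chains, had 2 loops, CYLD, another deubiquitinase, had 1 of 725 kb with 62 contacts, and RBCK1 had 1 of 125 kb. The 5 subunit genes of NF-kB, NFKB1, NFKB2, REL, RELA and RELB, had no end in an anchor. With a background of 17.3%, 5 genes are too few to read this as a trait of the subunits. NFKB1, NFKB2 and REL lay inside a TAD. In the 1701 loops with the lowest FDR the count over the lists was 8 of 58, with a background of 9.37%.

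**Figure D4:**
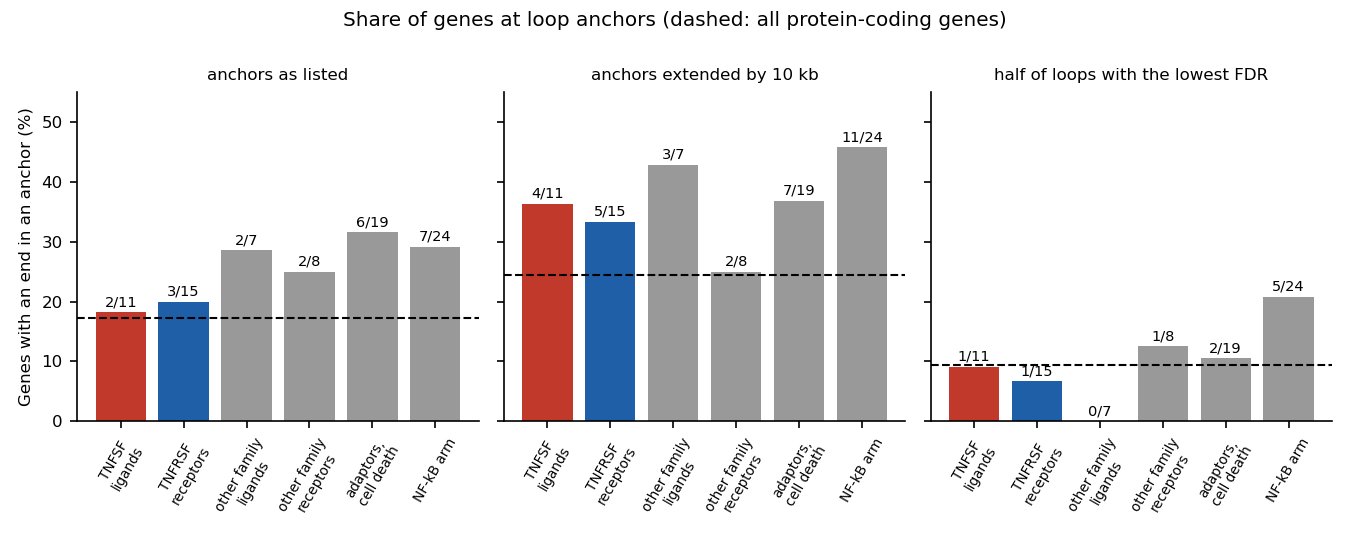
Percent of genes with an end in a loop anchor, for TNFSF ligands (red), TNFRSF receptors (blue) and the 4 lists of other pathway genes (grey), with anchors as listed, anchors extended by 10 kb, and the 1701 loops with the lowest FDR; counts stand above the bars and the dashed line is the share of all protein-coding genes. Ligands (2 of 11) and receptors (3 of 15) stand close to the dashed line with anchors as listed.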

How the data were processed

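In situ Hi-C with DpnII was run on pig spleen in 2 biological replicates, per the labels' protocols. The submitters' processing notes name HiC-Pro 3.1.0. Per the file headers, juicer_tools 1.9.9 made the list of loops. Its observed contacts are raw counts per pixel, as deposited, and its expected contacts are a signal from the surrounding donut of pixels, per the file headers. The largest of the authors' 4 FDR values (q-values) was used. TAD caller, build, pooling and depth were not given in the sources used here, so depth is unknown and only the contacts of each loop, 10 to 1004, show precision.

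Genes came from RefSeq's table of Sscrofa11.1. As no header names the build, gene coordinates are not printed, and anchors and TADs are given as deposited, counted from 1. With genes displaced by 100 to 500 kb either way, 12.0 to 14.0% met an anchor, against 17.3% undisplaced. With Python 3.11.15 and pandas 2.3.3, genes were placed by either annotated end, and near a TAD edge within 20 kb. A loop joined both edges of a TAD when its anchors, widened by 20 kb, held them. Contacts have exact Poisson 95% intervals (scipy 1.17.1), and ratios are the fold of observed over expected deposited values. The placement code was tested on simulated data. Every member was accounted for, those at anchors with all protein-coding partners. The members and lists were chosen with earlier results of these data known. Alternatives were extended anchors, gene spans, the 1701 loops of lowest FDR, 1 pixel per touching group (2345 loops) and other TAD windows. Promoter motifs named in the design were not analysed here, and some genes at anchors are not reported here.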

Additional observations from a re-analysis of the deposited data

How the results depend on the processing

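Counts of members moved with the definition of contact, and so did the shares of all protein-coding genes, given in brackets. Members with a gene end in an anchor were 5 (17.3%), against 9 with anchors extended by 10 kb (24.5%). By any part of the gene span they were 8 (20.7%), and in the 1701 loops with the lowest FDR 2 (9.37%). With 1 pixel per touching group they were 4 (14.7%). Loops with a member end in an anchor were 6, against 11 with extended anchors, 3 in the loops with the lowest FDR and 4 with 1 pixel per touching group. Members near a TAD edge were 3 within 20 kb (18.7%), 1 within 10 kb (11.1%) and 5 within 40 kb (29.6%). Members inside a TAD were 9 by whole span (26%) or midpoint (31.1%) and 10 by any overlap (35.4%). Members enclosed by a loop were 9 (19.3%), against 3 in the loops with the lowest FDR (11%), an alternative chosen after seeing the data. Pathway list genes at an anchor were 17 (17.3%), against 8 in the loops with the lowest FDR (9.37%). Fewer loops or wider windows change how many genes can be counted. The transcription start alone was not run, as no table gives the strand. No paired analysis was possible because the study has 1 group and no value per replicate, and no replicate could be left out. No loop depth per replicate is known.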
